A study of Homo sapiens with 4 samples.

Results

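The interferon-stimulated genes described here are 49 genes of the type I and type II interferon systems: 4 receptor chains, the transcription factors that carry the signal, and the antiviral effectors that are switched on by it. They were found by the gene name that the array files give each probe, and all 49 of the 49 names were on the array, with 72 probes, out of 19416 named genes. NB4 is an established human cell line from acute promyelocytic leukemia (APL). Parental NB4 cells, called naive, were compared with a line derived from them that resists arsenic trioxide (ATO), a drug used to treat this leukemia. RNA from 2 flasks of each line was hybridized to 1-colour Agilent arrays, 1 flask per array. Both lines were kept in RPMI medium with 10% FBS, and ATO had been left out of the resistant cultures during the last week. No interferon treatment is stated for any flask. The resistant line, NB4-VM-AsR1 in the labels, is treated in the methods as 1 clone, spelled NB4-EV-AsR1 there, and it is an assumption that both spellings mean the same clone. Differences between the lines therefore belong to that clone, and the flasks measure the spread between cultures only.

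Interferons are secreted proteins that warn cells of viral infection. Type I interferons bind IFNAR1 and IFNAR2, which activate Janus kinases and a factor built from STAT2, IRF9 and a partner STAT protein. This complex binds a DNA element in the promoters of its targets, and interferon gamma acts through IFNGR1 and IFNGR2 on a second kind of element. Many targets remain transcribed at a low level without any infection, and small amounts of interferon and the interferon regulatory factors help to set this basal level.

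Part of the list shares a DNA element that the measurements do not use. The letters GAAA, any 2 bases and GAAA again, the core of the interferon-stimulated response element, were searched on both strands of the 250 bases before each start site in RefSeq sequences of GRCh38.p14. Promoter sequence was given for 39 of the 49 genes, and 23 of these 39 (59.0%) held the letters, against 1014 of 27305 genes (3.71%). The letters TTCNNNGAA, the core of the element bound by STAT dimers, read the same on both strands and can overlap the first motif. They were found in 11 of the 39 genes (28.2%) and in 8.09% of all genes. A match describes the letters and is not evidence of binding. The following stretches were picked from genes that hold the first motif and on which the results below turn. They are written 5′ to 3′ on the strand of the gene, with the first motif in capitals. TTTC at the start of the capitals marks a match on the opposite strand.

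IFIT1, chr10:89392487-89392549, plus strand: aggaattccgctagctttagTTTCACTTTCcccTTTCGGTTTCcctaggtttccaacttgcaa
IFIT5, chr10:89414503-89414567, plus strand: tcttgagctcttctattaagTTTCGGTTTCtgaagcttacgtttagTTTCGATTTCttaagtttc
IFI6, chr1:27672256-27672368, minus strand: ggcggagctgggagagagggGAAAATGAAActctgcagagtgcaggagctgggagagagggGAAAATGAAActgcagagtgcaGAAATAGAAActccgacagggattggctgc
ISG15, chr1:1013364-1013419, plus strand: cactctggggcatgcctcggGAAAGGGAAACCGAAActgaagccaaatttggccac
DDX60, chr4:168318776-168318860, minus strand: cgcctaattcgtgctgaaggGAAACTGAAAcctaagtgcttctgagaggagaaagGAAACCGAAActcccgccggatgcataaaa
RSAD2, chr2:6877612-6877661, plus strand: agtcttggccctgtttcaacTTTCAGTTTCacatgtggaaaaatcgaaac
IFITM1, chr11:313980-314029, plus strand: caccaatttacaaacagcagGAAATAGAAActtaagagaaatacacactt
MX1, chr21:41431834-41431883, plus strand: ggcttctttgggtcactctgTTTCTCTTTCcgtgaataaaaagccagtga
LGALS3BP, chr17:78979952-78980001, minus strand: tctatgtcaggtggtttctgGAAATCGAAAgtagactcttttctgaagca

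IFIT1, IFIT5 and DDX60 carried the motif at 2 separate places and IFI6 at 3, while the 2 matches of ISG15 share bases. IFITM1, MX1 and LGALS3BP, which differed between the lines, carried it once. No match was found for USP18, which differed as well. OAS1 and IRF9, also described below, held the letters TTCNNNGAA but not the first motif.

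**Figure D1:**
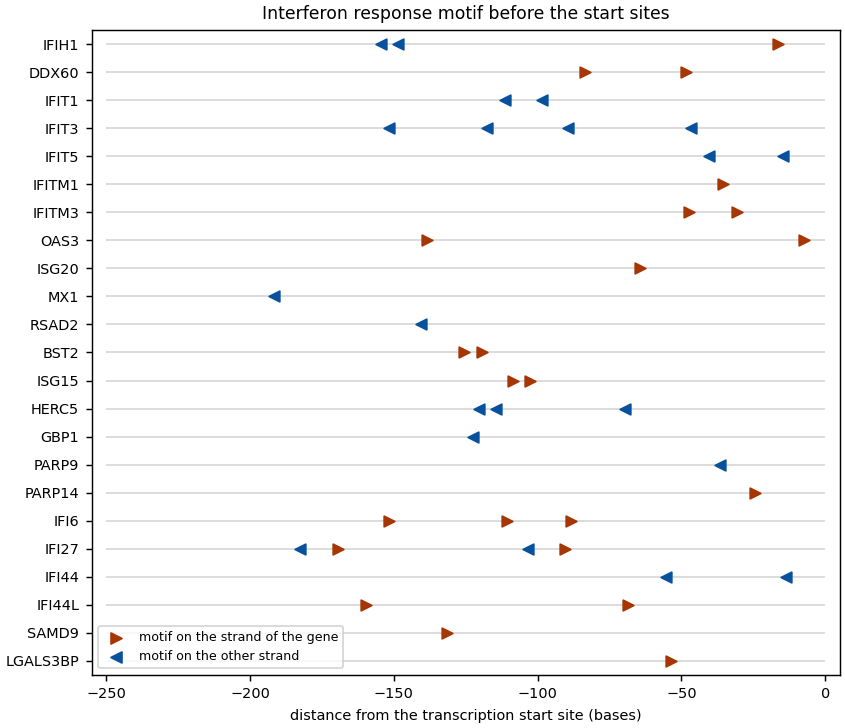
Position of the response element letters (GAAA, 2 bases, GAAA) in the 250 bases before the start sites of the 23 interferon-stimulated genes that hold them. The x axis gives the distance from the transcription start site in bases, each row is a gene, and a triangle is a match, pointing right where it lies on the strand of the gene and left where it lies on the other strand.

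Levels are log2 of the processed signal minus the 75th percentile of the same array, so a level of 0 equals that percentile and 1 unit is a 2-fold step. Levels of different genes come from different probes and were not set against each other. Each array had 45015 spots for 41000 probes, and between 27921 and 28243 probes were well above background. Of the 6 myeloid markers of promyelocytes, 5 were well above background in all 4 flasks, and CD33, a surface protein of these cells, lay at 2.84 and 3.17 in naive and 2.63 and 2.80 in resistant cells. The probe of MPO, the peroxidase of primary granules, was saturated on all 4 arrays. Other granule genes moved: AZU1 (-0.77 and -0.77 against 0.40 and 0.39) and ELANE were called higher in resistant cells, and PRTN3 was at 3.16 and 0.80 against 4.43 and 4.32, so that naive flask 2 was the lowest. Their part in the differences below was not tested. All arrays shared 1 slide with the naive flasks at its first positions, so that slide position and line cannot be told apart. After normalization, the 6 usable spike-in controls (synthetic RNAs added at labeling) had a median 1.31 log2 units lower in naive flask 1 than in naive flask 2, whereas those of the resistant flasks lay 0.24 and 0.27 lower.

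Of the 49 genes, 43 were well above background in all 4 flasks and 47 were tested, RSAD2 and GBP1 being the exceptions. Between the lines, 2 genes were higher in resistant cells (MX1 and LGALS3BP) and 2 were lower (IFITM1 and USP18) where a call needed a limma adjusted p below 0.05 and a difference of 2-fold or more. These 4 of 47 (8.51%) stand beside 898 of 14567 genes in all (6.16%) and 5.27% of all probes, and 2.88% of all genes were called higher and 3.29% lower. After a normexp background correction limma called 0 of all probes tested and so 0 of the 47. At an unadjusted p below 0.05 it then left 930 probes and 4 of the 47. With unusually bright local backgrounds reset before that correction, 1 of the 47 was called higher and 3 lower, beside 536 and 653 probes. USP18 also lost its call after quantile or scale normalization. Apart from the 4 called genes, the other 43 did not pass. Their changes ran from -3.79 to 1.77, and over all 47 genes the median change was -0.40, against 0.0014 over all genes tested. In 20 of the 47 genes (42.6%) both resistant flasks lay below both naive flasks, against 29.1% of all genes. In 11 (23.4%) both lay above, against 28.2%, and in 10 (21.3%) both lay between the naive flasks, against 19.8%. At an unadjusted p below 0.05 there were 16 of 47 genes (34%) and 20.9% of all genes.

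**Figure D2:**
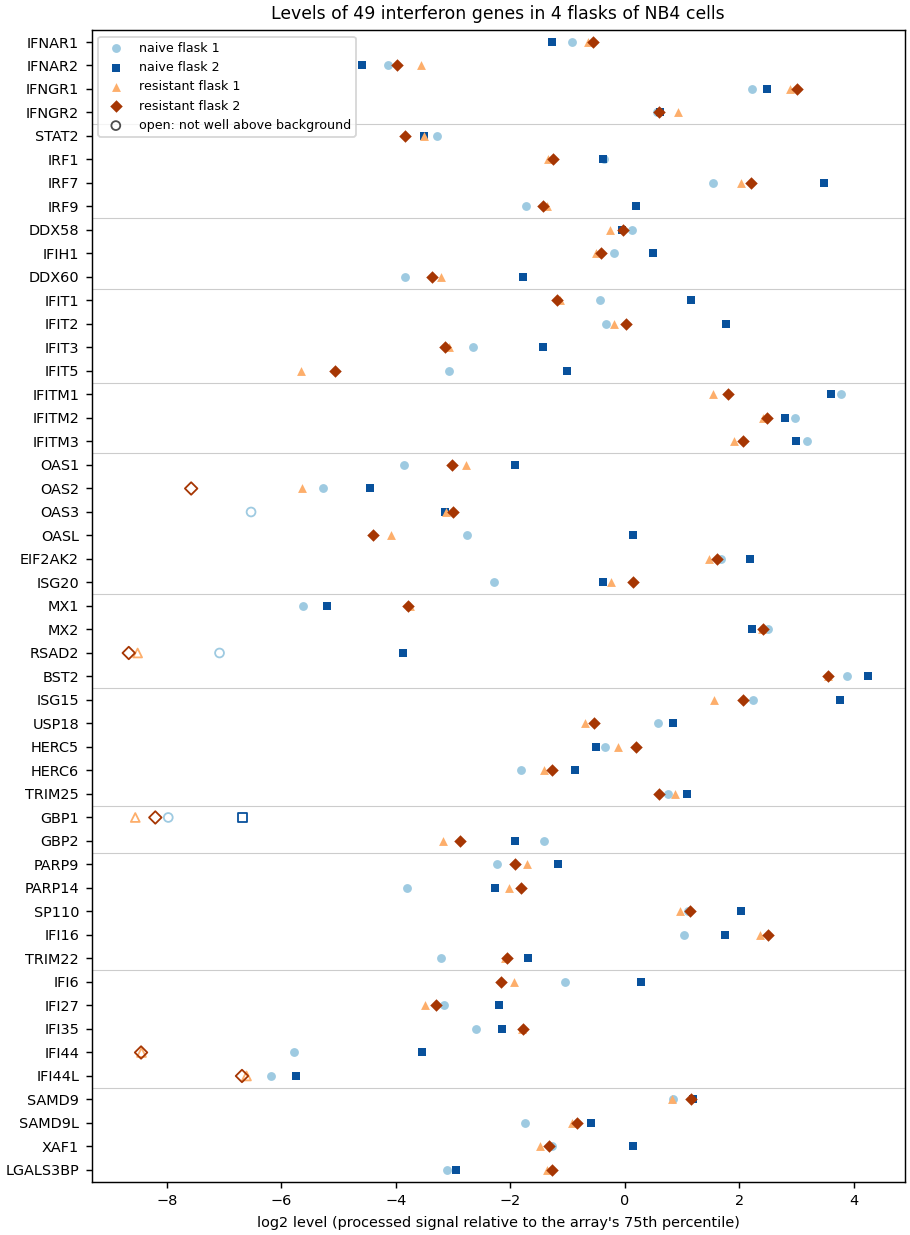
Log2 level of the 49 interferon-stimulated genes in each of the 4 flasks, relative to the 75th percentile of the array on the x axis, with 1 row per gene and lines between the groups of genes. Each symbol is 1 flask and open symbols were not well above background. The resistant flasks lie close together in most rows, while naive flask 2 lies to the right of naive flask 1 in most of the IFIT and OAS rows.

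The receptors were present in both lines. IFNAR1, the first chain of the type I receptor, had levels of -0.92 and -1.28 in the naive flasks and -0.65 and -0.55 in the resistant flasks. IFNAR2, its partner, was at -4.15 and -4.59 against -3.56 and -3.99. For IFNGR1, the ligand-binding chain for interferon gamma, the values were 2.22 and 2.48 in naive and 2.88 and 3.01 in resistant cells. In these 3 genes both resistant flasks lay above both naive flasks, as in 28.2% of all genes. Their changes of 0.50, 0.59 and 0.60 (SE 0.24, 0.29 and 0.23) did not pass the test, with limma adjusted p = 0.347, 0.343 and 0.255. IFNGR2 showed 0.55 and 0.62 against 0.93 and 0.60, a change of 0.18.

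The 4 transcription factors all had negative changes and none was called. IRF1, a factor induced by both interferon types, was at -0.37 and -0.38 in naive cells and -1.35 and -1.25 in resistant cells. The flasks of each line almost coincided, and the change of -0.93 (SE 0.22) had a limma adjusted p of 0.0912. STAT2 showed -3.28 and -3.51 against -3.50 and -3.85, with a change of -0.28. IRF7, which amplifies the type I response, was measured at 1.53 and 3.47 in the naive and 2.03 and 2.21 in the resistant flasks. IRF9, the DNA-binding part of the complex with STAT2, was at -1.72 and 0.19 against -1.36 and -1.43. For both of these factors the resistant flasks lay between the naive flasks. Their changes of -0.38 and -0.63 had standard errors of 0.64 and 0.63.

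None of the cytoplasmic sensors of viral RNA passed the test between the lines. DDX58, which encodes RIG-I, had levels of 0.13 and -0.05 in naive and -0.25 and -0.04 in resistant cells, and its change was -0.19 (SE 0.23). IFIH1, which encodes MDA5, was at -0.20 and 0.50 against -0.50 and -0.42, a change of -0.61 (SE 0.30). DDX60, a helicase that assists RIG-I, showed -3.85 and -1.79 against -3.22 and -3.38. Only for IFIH1 were both resistant flasks below both naive flasks.

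The IFIT proteins bind viral RNA and block its translation, and all 4 family members had negative changes without a call. IFIT1 was at -0.43 and 1.16 in the naive flasks and at -1.14 and -1.19 in the resistant flasks. IFIT3 showed -2.65 and -1.43 against -3.07 and -3.14. In both genes the resistant flasks lay below both naive flasks, as in 29.1% of all genes. The changes of -1.53 (SE 0.53) and -1.06 (SE 0.43) did not pass, with limma adjusted p = 0.216 and 0.274. IFIT2 was measured at -0.33 and 1.77 in naive and -0.19 and 0.02 in resistant cells, so that its naive flasks enclosed the resistant ones. Its change was -0.81 on this probe and -0.09 on its second probe. IFIT5 had the widest gap of the family, with -3.07 and -1.02 against -5.66 and -5.06. Its change of -3.32 (SE 0.69), a 9.99-fold lower mean, had a limma adjusted p of 0.0668. The second IFIT5 probe gave -3.16 and -1.87 against -5.64 and -5.39, with naive flasks closer to each other, and did pass (limma adjusted p = 0.0270), and the call of IFIT5 therefore depends on the probe.

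IFITM proteins sit in membranes and hinder the entry of enveloped viruses. IFITM1 was one of the called genes, with levels of 3.78 and 3.60 in the naive flasks and 1.54 and 1.81 in the resistant flasks. Its mean fell from 3.69 ± 0.13 to 1.67 ± 0.18 (SD, n = 2 flasks each), a 4.03-fold lower level in resistant cells (log2 change -2.01, SE 0.24, limma adjusted p = 0.0111). Its probe lies at chr11:315209-315268 of hg19 on the plus strand. IFITM3, its neighbour on chromosome 11, was at 3.18 and 3.0 against 1.91 and 2.06. That difference of -1.10 (SE 0.23) did not pass, at a limma adjusted p of 0.0650. IFITM2 showed 2.97 and 2.79 against 2.42 and 2.48, a change of -0.43. All 3 genes had both resistant flasks below both naive flasks, as did 29.1% of all genes. The naive flasks lay 0.18 apart in each of the 3. The genes are related in sequence: the probes of IFITM2 and IFITM3 match at 34 of 60 bases when aligned without gaps, and that of IFITM1 matches either at 21, so cross-hybridization was not tested.

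The oligoadenylate synthetases make a messenger that activates the nuclease RNase L. OAS1 was at -3.85 and -1.92 in naive and -2.78 and -3.01 in resistant cells, a change of -0.01 (SE 0.64). OAS2 showed -5.27 and -4.46 against -5.64 and -7.58, and the last flask was not well above background. OASL, a relative that enhances RIG-I signaling, was at -2.76 and 0.14 against -4.08 and -4.39. Its change of -2.93 (SE 0.92) was large, but the naive flasks were as far apart as that, and the limma adjusted p was 0.179. OAS3 was measured at -6.53 in naive flask 1, not well above background there, at -3.15 in naive flask 2 and at -3.13 and -3.01 in the resistant flasks. Its second probe gave -4.76, -3.76, -3.95 and -4.0, with a change of 0.29 in place of 1.77, and neither probe passed. EIF2AK2, the kinase PKR that halts translation, was at 1.68 and 2.20 against 1.47 and 1.61. ISG20, an exonuclease for RNA, had levels of -2.28 and -0.37 against -0.25 and 0.14, a change of 1.27 (SE 0.64).

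MX proteins are dynamin-like GTPases that trap viral components. MX1 was called higher, with -5.62 and -5.20 in the naive flasks and -3.76 and -3.79 in the resistant flasks. The means of -5.41 ± 0.30 and -3.78 ± 0.02 (SD, n = 2) differ 3.11-fold (log2 change 1.64, SE 0.25, limma adjusted p = 0.0274). Its probe is placed at chr21:42831014-42831073 of hg19. The paralog MX2 was at 2.50 and 2.22 against 2.40 and 2.42, a change of 0.05 (SE 0.23). BST2, or tetherin, which holds budding virus on the cell surface, showed 3.88 and 4.24 against 3.56 and 3.55, a change of -0.51. RSAD2, which encodes viperin, was well above background in naive flask 2 alone, at -3.87, while the other flasks read -7.08, -8.51 and -8.67. It was not tested for that reason.

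ISG15 is a ubiquitin-like protein that is attached to others by HERC5 and TRIM25 and removed by USP18, which also restrains the type I receptor. ISG15 itself was at 2.23 and 3.75 in naive and 1.56 and 2.06 in resistant cells, a change of -1.18 (SE 0.54, limma adjusted p = 0.318). USP18 was called lower, with 0.57 and 0.84 in the naive and -0.69 and -0.54 in the resistant flasks. The means were 0.71 ± 0.19 and -0.61 ± 0.11 (SD, n = 2), a 2.50-fold difference (log2 change -1.32, SE 0.23, limma adjusted p = 0.0428). The second USP18 probe showed -0.31 and 0.03 against -1.64 and -1.87, a change of -1.61 (limma adjusted p = 0.0272). The array files place both probes on the minus strand of chromosome 22, the brighter one at chr22:18746174-18746233 of hg19. USP18 is read from the plus strand and has related copies on that chromosome, so which copy the probes measured is uncertain. HERC5 was at -0.35 and -0.51 against -0.13 and 0.20, and HERC6 at -1.81 and -0.87 against -1.41 and -1.27. TRIM25 showed 0.75 and 1.09 against 0.88 and 0.59. These ligases had changes of 0.46, -0.0012 and -0.19 and none passed.

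Guanylate-binding proteins attack the vacuoles of intracellular microbes and respond strongly to interferon gamma. Neither of the 2 probes of GBP1 was well above background in any flask. GBP2 was at -1.42 and -1.92 in naive cells and -3.17 and -2.88 in resistant cells, with no overlap, and its change of -1.36 (SE 0.28) had a limma adjusted p of 0.0653.

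Nuclear and PARP-family members went in both directions without a call. IFI16, a sensor of DNA, was at 1.04 and 1.76 in naive and 2.37 and 2.50 in resistant cells, a change of 1.04 (SE 0.31, limma adjusted p = 0.161). PARP14, an ADP-ribosyltransferase, showed -3.80 and -2.28 against -2.03 and -1.82. For IFI16 and PARP14 both resistant flasks lay above both naive flasks, as in 28.2% of all genes. PARP9 was at -2.23 and -1.16 against -1.71 and -1.92, and TRIM22, a ubiquitin ligase that restricts viral transcription, at -3.21 and -1.69 against -2.09 and -2.06. SP110, a nuclear body protein, had levels of 1.11 and 2.03 against 0.96 and 1.14. Their changes of -0.12, 0.37 and -0.52 were smaller than the gap between their naive flasks.

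Among the genes named only as interferon-induced, 4 of 5 had both resistant flasks below both naive flasks, beside 29.1% of all genes. IFI44 was at -5.79 and -3.54 in the naive flasks and not well above background in either resistant flask. With the processed signal its resistant mean was at least 3.45-fold lower, set against naive flasks that were 4.76-fold apart. The fitted change of IFI44 of -3.79 (SE 0.73) had a limma adjusted p of 0.0533. IFI44L was at -6.19 and -5.74, again with the resistant flasks not well above background. With the same processed signal its mean was at least 1.40-fold lower there. The change of IFI44L turned to 0.27 after normexp. IFI6, a mitochondrial and endoplasmic reticulum protein that opposes apoptosis, showed -1.04 and 0.28 against -1.94 and -2.17, a change of -1.68 (SE 0.47, limma adjusted p = 0.137). IFI27 was at -3.16 and -2.20 against -3.49 and -3.31, with a change of -0.72. IFI35 was the exception, at -2.60 and -2.14 against -1.80 and -1.78, a change of 0.58. None of the 5 was called.

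LGALS3BP, a secreted glycoprotein that binds galectins, was the other gene called higher. Its levels were -3.11 and -2.95 in the naive flasks and -1.36 and -1.28 in the resistant flasks. The mean rose from -3.03 ± 0.11 to -1.32 ± 0.06 (SD, n = 2), a 3.28-fold difference (log2 change 1.71, SE 0.22, limma adjusted p = 0.0153). Its probe lies at chr17:76968048-76968107 of hg19. SAMD9 was at 0.84 and 1.19 against 0.82 and 1.15, and SAMD9L at -1.74 and -0.58 against -0.93 and -0.83. XAF1, which opposes an inhibitor of apoptosis, showed -1.28 and 0.15 against -1.47 and -1.32, a change of -0.83 (SE 0.49), with values between -0.78 and -0.83 from its 3 probes. The call rule was met by none of the latter 3 genes.

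**Figure D3:**
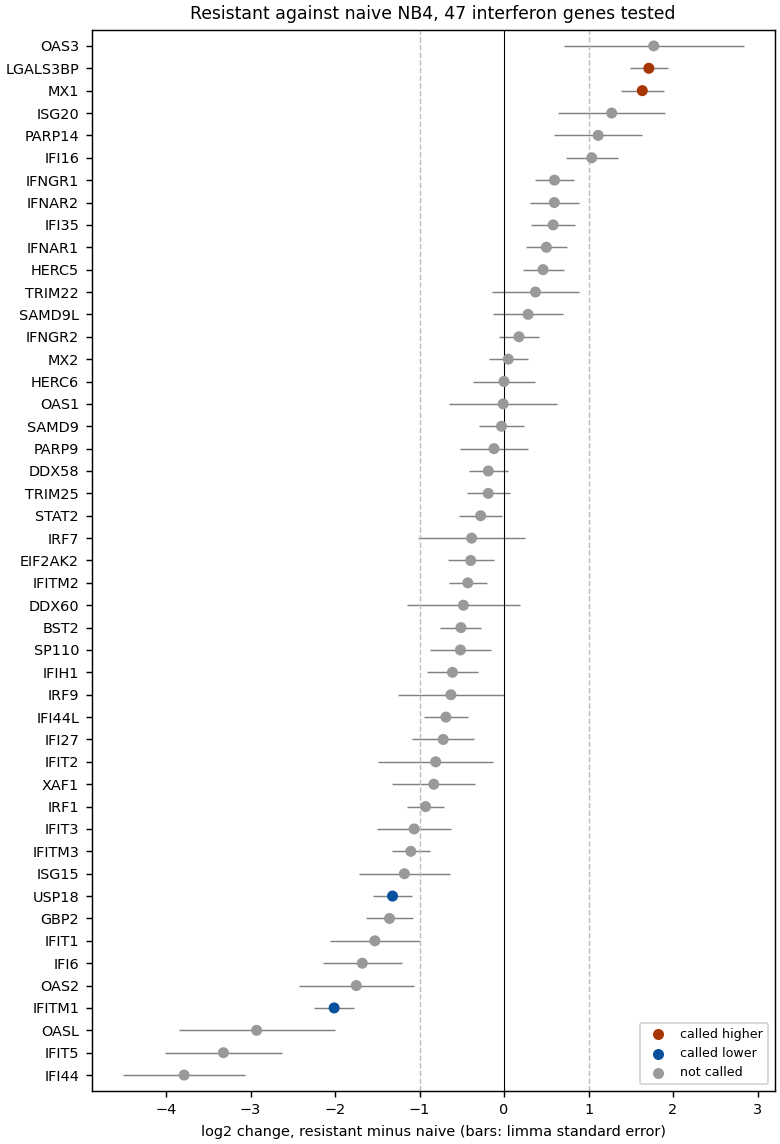
Log2 change of the 47 tested genes, resistant minus naive on the x axis, with the limma standard error as a bar and 1 row per gene. Dashed lines mark a 2-fold change. MX1 and LGALS3BP are coloured as called higher, IFITM1 and USP18 as called lower. Wide bars such as that of OAS3 (SE 1.06) mostly belong to genes whose naive flasks lay far apart. For OAS2 (SE 0.68) it was the resistant flasks that lay far apart.

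The naive flasks also differed from each other. In naive flask 2, 19 of the 47 genes (40.4%) were at least 2-fold higher than in naive flask 1 and 0 were at least 2-fold lower, whereas of all genes 6.85% were higher and 3.82% lower by that much. This sets 1 flask against 1 flask and has no test. By the same 2-fold measure and again with no test, the means of the lines were apart in 18 of the 47 genes (38.3%), 12 lower and 6 higher in resistant cells, against 13.2% of all genes. Naive flask 2 minus naive flask 1 had a median of 0.71 over the 47 genes and 0.036 over all genes. By any amount, 36 of the 47 were higher in naive flask 2. Between the resistant flasks, 1 of the 47 genes (OAS2, not well above background in resistant flask 2) was at least 2-fold apart, against 1.74% of all genes. Over all genes, the log2 difference had an SD of 0.67 for the naive pair of flasks and 0.35 for the resistant pair.

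The 19 genes came from most of the functional groups. All 4 IFIT genes were among them, with 3.01-fold for IFIT1, 4.28-fold for IFIT2, 2.34-fold for IFIT3 and 4.14-fold for IFIT5. Of the OAS, PKR and ISG20 group, 4 of 6 were included: OAS3 at 10.4-fold, OASL at 7.50-fold, OAS1 at 3.81-fold and ISG20 at 3.76-fold. Naive flask 1 was not well above background for that OAS3 probe, and the second probe, above background in every flask, was 2.00-fold higher. The transcription factors IRF7 and IRF9 were 3.84-fold and 3.77-fold higher. IFI44 (4.76-fold), DDX60 (4.17-fold), TRIM22 (2.88-fold), ISG15 (2.87-fold), PARP14 (2.87-fold), XAF1 (2.69-fold), IFI6 (2.51-fold), SAMD9L (2.23-fold) and PARP9 (2.10-fold) complete the list. Of 9 additional tested probes of these genes, 8 were well above background in both naive flasks, and these 8 were at least 2-fold higher in naive flask 2 on the same RNA, from 2.00-fold for OAS3 to 4.73-fold for DDX60. The other, a PARP14 probe, was above background only in the resistant flasks and measures no naive difference. IFI27 fell outside the 19 at 1.94-fold on its brightest probe, though its second probe was 2.23-fold higher in naive flask 2.

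In other families the naive flasks were closer, a difference between families that was not tested. None of the 4 receptors, the 3 IFITM genes or MX1, MX2 and BST2 was 2-fold apart between the naive flasks. RSAD2, grouped with the latter, was not tested and was above background in naive flask 2 alone. IFITM1, IFITM2 and IFITM3 each stood at 0.88-fold in naive flask 2, and MX2 at 0.825-fold. The 4 genes called between the lines were all among the 28 genes with naive flasks under 2-fold apart. Of these, MX1 differed 1.34-fold, USP18 1.20-fold, LGALS3BP 1.12-fold and IFITM1 0.883-fold. None of the 19 genes was called on its brightest probe, while IFIT5 was called on its second. A wide gap between the naive flasks raises the standard error and hinders a call, so this split is no separate result. The resistant flasks lay between the naive flasks in 8 of the 19, below both in 8 and above both in 3. Over all genes these shares were 19.8%, 29.1% and 28.2%. The 19 were picked for a wide naive gap, which by itself leaves more room between the naive flasks. The response element letters stood before 11 of the 15 genes of this set that have promoter sequence (73.3%) and before 10 of 22 of the other tested genes (45.5%), a difference that was not tested.

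**Figure D4:**
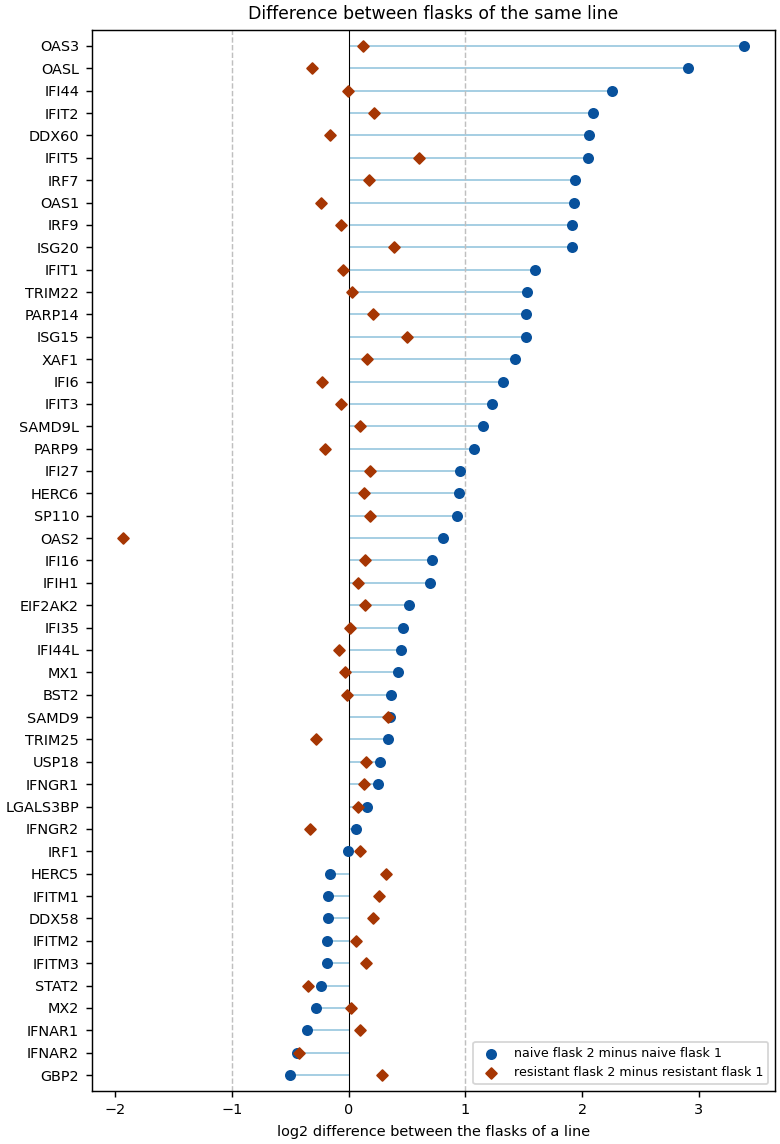
Log2 difference between the flasks of a line for the 47 tested genes, in order of the naive difference, with circles for naive flask 2 minus naive flask 1 and diamonds for resistant flask 2 minus resistant flask 1 on the x axis. Dashed lines mark 2-fold; 19 circles lie beyond the right line and 0 beyond the left, while among the diamonds only that of OAS2 lies outside.

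The spike-in controls moved in the same direction as these genes, being 1.31 lower in naive flask 1, and their part in the difference was not tested. With other scalings, 17 to 19 genes were at least 2-fold higher in naive flask 2 and 0 lower after quantile, scale or median normalization and in the deposited log2 table, while a normexp background correction left 10 higher and 1 lower, against 2.54% of all genes higher. The same correction with unusually bright local backgrounds reset gave 18 higher and 0 lower, against 3.67% of all genes higher. The markers of plasmacytoid dendritic cells, a blood cell type rich in interferon, had a summed level of 1.16 and 1.5 in the naive flasks and -0.31 and -0.21 in the resistant flasks. IL3RA (0.94 and 1.31 against -0.68 and -0.56) carried that sum and was called lower. TCF4 was called lower as well, at -1.95 and -2.01 against -4.53 and -4.26. LILRA4 went the other way, from -4.23 and -3.60 to -2.89 and -2.98, without a call. CLEC4C, which defines that cell type, was not well above background in any flask. The monocyte or macrophage markers summed to 1.53 and 1.74 in naive and 2.72 and 2.92 in resistant cells, with 2 of 4 not well above background anywhere. CSF1R carried this sum, whereas CD14 lay at -3.24 and -3.18 against -3.66 and -3.77. T cell markers summed to 0.79 and 1.24 in naive and -3.15 and -2.77 in resistant cells, with 2 of 4 well above background in all flasks. That sum is CD3D (0.70 and 1.16 in naive, not well above background in resistant cells), which was called lower. CD3G, at -5.25 and -5.43 in naive and not well above background in resistant cells, was called lower too. CD3E had a change of -0.01 and CD2 one of 1.02, neither of them called. The part of these marker differences in the results was not tested.

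The calls between the lines depended on which naive flask stood for the naive line. Without naive flask 1, limma called 17 of the 47 genes lower (36.2%) and 2 higher, against 7.36% lower and 6.64% higher among all genes. Without naive flask 2, it called 8 lower (17.0%) and 7 higher (14.9%), against 7.12% and 8.68%. The spread then comes from the resistant flasks alone, and the single naive flask is assumed to vary as they do. ISG15 had a change of -1.94 without naive flask 1 and -0.42 without naive flask 2, and OAS1 went from -0.98 to 0.95. IFIT2 turned from -1.86 to 0.24, IRF7 from -1.35 to 0.59 and IRF9 from -1.59 to 0.33.

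With either naive flask, 10 of the 47 genes (21.3%) were called the same way, against 8.6% of all genes. Both fits use the same resistant flasks and take their spread from them, so they are not independent. The genes called lower both times were IFITM1, IFITM3, USP18, GBP2, IFIT5, OASL, IFI6 and IFI44, and those called higher both times were MX1 and LGALS3BP. IFIT5 was at -4.35 without naive flask 1 and at -2.30 without naive flask 2, and IFI44 at -4.91 and -2.66. IFITM1 hardly moved, from -1.92 to -2.10, and MX1 was at 1.42 and 1.85. When 1 resistant flask was left out, limma called 0 of the 47 genes each time, against 3.03% and 2.94% of all genes. Each fit left 10 of the 47 at an unadjusted p below 0.05. The share of all genes at that unadjusted threshold was not counted. IFITM1 was then at -1.88 (limma adjusted p = 0.122) without resistant flask 1 and at -2.14 (adjusted p = 0.0770) without resistant flask 2.

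The other genes of the pathway were read from a list of 69 genes, of which 66 were on the array and 49 could be tested. Of the 49, 1 was higher and 4 were lower in resistant cells, beside 2.88% and 3.29% of all genes. After normexp limma called 0 of all probes tested and so 0 of the 49, with 6 of the 49 at an unadjusted p below 0.05. IRF5, a factor that drives interferon and cytokine genes in myeloid cells, was higher, with -1.72 and -2.81 in naive and 1.16 and 1.17 in resistant flasks (log2 change 3.43, SE 0.40, limma adjusted p = 0.0108). CXCL10, a chemokine strongly induced by interferon gamma, was at -5.68 and -5.22 in naive flasks and not well above background in the resistant flasks. It was called lower (limma adjusted p = 0.00353), with a mean at least 2.00-fold lower in resistant cells, but its change turned to 0.095 after normexp. The remaining genes called lower were PARP12, an antiviral ADP-ribosyltransferase, GBP5, a guanylate-binding protein, and PSMB9, a subunit of the immunoproteasome. PARP12 went from 0.21 and 0.94 to -1.80 and -2.05, a change of -2.50. GBP5 showed 0.50 and 0.37 against -1.38 and -1.21, a change of -1.73, and PSMB9 0.47 and 1.18 against -0.85 and -0.91, a change of -1.70. At an unadjusted p below 0.05 there were 16 of the 49 genes (32.7%), against 20.9% of all genes.

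Interferon genes themselves were mostly not well above background. All 5 interferon alpha genes measured were not well above background in any flask, and the same held for 8 of 11 ligand genes in all. IFNB1, which encodes interferon beta, was well above background in the naive flasks at -4.73 and -5.71 and not in the resistant flasks. Its fitted change of -1.43 was not called (limma adjusted p = 0.122), and the resistant mean was at least 2.35-fold lower. The naive flask with the higher IFNB1 signal was flask 1, in which the 19 genes were lower. This sets 1 flask against 1 flask, and a link of IFNB1 to those genes was not tested. Of the 49 pathway genes tested, naive flask 2 was at least 2-fold higher in 5 (TLR9, DHX58, C19orf66, APOL6 and LAMP3) and at least 2-fold lower in 3 (IRF5, SAMHD1 and CASP1), beside 6.85% and 3.82% of all genes. DHX58, the third RIG-I-like receptor, had levels of -2.28 and -0.44 in naive and -0.53 and -0.44 in resistant cells. The kinases JAK1 and TYK2 were at -0.81 and -0.52 against -0.53 and -0.27, and at 3.22 and 3.57 against 3.83 and 3.89.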

How the data were processed

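Total RNA of 2 naive and 2 resistant flasks was hybridized to 4 arrays. The authors read the scans with Agilent Feature Extraction 10.5.1.1. Its deposited processed signal is a background-subtracted intensity, and a second deposited table holds log2 values that GeneSpring GX had shifted to a common 75th percentile. Groups follow the sample titles, and the replicates are independent flasks.

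From the intensities, log2 values were taken in R 4.3.3. Controls and outlier spots were left out, replicate spots averaged and each array's 75th percentile subtracted, which gave values correlating with the deposited log2 table at 0.9998 or above. A probe was tested when both arrays of at least 1 line were well above background, which left 28220 probes, 66 of them from these genes. The test was limma 3.58.1 (lmFit, eBayes), p-values were adjusted over all tested probes by Benjamini-Hochberg, and a call needed an adjusted p below 0.05 and a 2-fold change. A gene is given by its brightest tested probe, and other probes are named for some genes only. For lines that were not well above background, a bound was set on each array. It used the lowest signal of any probe well above background, or the gene's own signal where higher. Folds given as at least hold for this background subtraction only. All 47 tested genes of the list, and the called genes of the wider pathway list, could be named. Other pathway genes named here were not called, some were not tested, and they were added outside that rule. The genes, lists and comparisons were chosen with earlier results of these data known. The fit was tested on simulated arrays with known changes. Arrays have no read depth, and their number limits the precision. Probe positions are those of the files (hg19), and promoters were matched by symbol in RefSeq GRCh38.p14.

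The alternatives were other background corrections (normexp with an offset of 50, also with bright local backgrounds reset), scalings and filters, an intensity trend, the methods' t-test, the deposited log2 table, no fold minimum, a block for the replicate number, leaving out each flask, probes named through accessions and the mean over a gene's probes.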

Additional observations from a re-analysis of the deposited data

How the results depend on the processing

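All 4 arrays lay on 1 slide, so the slide could not serve as a block, and 2 flasks per line limit every comparison. The median change of the interferon-stimulated genes (-0.40) stayed negative under each alternative run, between -0.69 without naive flask 1 and -0.054 without naive flask 2. Their count called higher (2) was 0 after normexp and by the methods' t-test with adjusted p-values, and 1 with no filter on dim probes and after a normexp correction with the bright local backgrounds reset, an alternative chosen after seeing the data. It ran from 0 without a resistant flask to 7 without naive flask 2. The count called lower (2) was 0 after normexp and by the adjusted t-test, and 1 after quantile normalization, with no filter and with a filter for probes above background on all arrays. It was 5 after scale normalization, 4 with a median shift, with the intensity trend and by the unadjusted t-test, and 6 for the mean over probes, and ran from 0 without a resistant flask to 17 without naive flask 1. With the replicate number as a block it was 3, USP18 losing and IFIT5 and IFI44 gaining the call, and 588 probes were called higher and 785 lower. The flasks share only a number, their deviations correlating at 0.119 over 2 pairs. USP18 also lost its call after quantile and scale normalization, with no filter and with the filter on all arrays, and MX1 with no filter and after the reset normexp. The pathway list's count called higher (1) was 0 after normexp and by the adjusted t-test, 2 after scale normalization, with the trend, after the reset normexp and for the mean over probes, 3 by the unadjusted t-test and 1 to 4 with a flask left out. Its count called lower (4) was 0 after normexp and by the adjusted t-test, 2 with the filter on all arrays and 1 to 8 with a flask left out. Over all probes, 649 were called higher and 837 lower. Both counts were 0 after normexp and by the adjusted t-test, 416 higher with no filter, 347 higher and 413 lower with the filter on all arrays, and 273 to 2506 higher and 454 to 2028 lower with a flask left out, most without naive flask 2 in the first case. At an unadjusted p below 0.05, normexp left 930 probes and 4 of the 47 genes, and the t-test 4137 probes and 8 genes. The 19 genes higher in naive flask 2 were 10 after normexp and 18 after the reset normexp. Scale normalization moved the median of all genes by 0.12 and normexp by 0.11. Of 984 values of named genes under alternatives, 867 kept their direction and side of the threshold, 43 gained and 43 lost a call, and 31 changed sign. After normexp the sign changed for STAT2 (0.097), OAS2 (0.025), IFI44L (0.27), SAMD9 (0.028), HERC6 (0.087) and CXCL10 (0.095). OAS1 turned after quantile (0.0091), scale (0.037) and median (0.034) scaling, HERC6 after the same (0.0071, 0.085 and 0.044) and the reset normexp (0.070), SAMD9 after scale (0.10), median (0.014) and the reset normexp (0.059), and MX2 for the mean over probes (-0.095). With each flask left out in turn, 11 genes changed sign: IRF7 ran from -1.35 to 0.59, IRF9 from -1.59 to 0.33, DDX60 from -1.51 to 0.55, IFIT2 from -1.86 to 0.24, PARP9 from -0.65 to 0.42, OAS1 from -0.98 to 0.95, HERC6 from -0.47 to 0.47, SAMD9 from -0.21 to 0.15, MX2 from -0.089 to 0.19, TRIM22 from -0.39 to 1.13 and SAMD9L from -0.29 to 0.86, in each case from one naive flask left out to the other. The cause was not tested.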

Other observations

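Further interferon-induced genes were measured in naive flask 2 alone. EPSTI1, an interferon-induced gene, was well above background there at -4.55 and not in naive flask 1 or either resistant flask. SLFN5, of the Schlafen family, was well above background at -6.10 in the same flask only. With RSAD2 these are the genes of both lists for which naive flask 2 was the single flask above background. They were not tested, and the share of all genes with that pattern was not counted. AIM2, a sensor of cytoplasmic DNA, was well above background in resistant flask 2 alone at -6.22, and RTP4 in resistant flask 1 alone at -6.05. C19orf66, which encodes an inhibitor of viral translation, was at -0.07 and 1.85 in the naive and -0.98 and -0.95 in the resistant flasks, a change of -1.85 that was not called (limma adjusted p = 0.204). TAP1, the peptide transporter for antigen presentation, was at 2.18 and 3.0 against 1.02 and 0.91, and its change of -1.63 (SE 0.33) had a limma adjusted p of 0.0639.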
